A study of Drosophila melanogaster with 25 samples.

Results

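Iron and heme handling in the fly brain was followed through 10 genes, chosen by name for their role: the ferritin genes Fer1HCH, Fer2LCH and Fer3HCH, the transferrin genes Tsf1, Tsf2 and Tsf3, the metal transporter gene Mvl, the heme synthesis gene Alas, the heme oxygenase gene Ho and the frataxin gene fh. Of these 10 genes, 9 had a row among the 16060 genes of the deposited expression table, and 8 were above 0 in at least 1 library. Fer3HCH, which encodes the mitochondrial ferritin of Drosophila, was not analysed here, and Tsf3 was listed at 0 in 25 of 25 libraries. RNA had been sequenced from Drosophila melanogaster brains in 25 libraries, made with a SMART-Seq mRNA kit. The groups were female control (n = 5), female photodynamic exposure (n = 7), male control (n = 7) and male photodynamic exposure (n = 6). Photodynamic exposure, PDE below, pairs light with a light-absorbing compound to produce reactive oxygen species, and the study asked how long-term PDE acts on the response to oxidative stress. The labels name no strain, genotype, age, compound or length of exposure. They also do not say whether replicates were separate animals, and p-values here therefore reflect only variation among these libraries, part of which may be technical.

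Iron is needed as heme and as iron-sulfur clusters, and free ferrous iron reacts with hydrogen peroxide to form hydroxyl radicals. In insects ferritin is assembled in the secretory pathway from heavy chains, which oxidise iron, and light chains, which help to form the mineral core, while transferrin carries iron in the haemolymph. Heme is built in a series of enzymatic steps that starts with Alas, and heme oxygenase opens the heme ring to give biliverdin, carbon monoxide and iron. Porphyrin intermediates of heme synthesis absorb light and can themselves produce reactive oxygen species.

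Sequencing depth, as reads recovered per library (M, mega), ran from 8.88 to 58.73 M, with medians of 23.42 M in female controls, 26.16 M in female PDE, 31.71 M in male controls and 26.55 M in male PDE. Female control 3 had the lowest depth and also the lowest summed RPKM of all libraries. It was the lowest library for 7 of the 8 measured members, and for 29.8% of the 7985 genes tested. Male control 6 had the highest value of both ferritin genes. In 5 libraries (male controls 4, 5 and 6, female control 4 and male PDE 3) the 13 retinal marker genes above 0 (of 14) summed to between 5378 and 9622 RPKM, while the lowest library had 81.7 RPKM, so retinal transcripts were unequal between libraries. The neuronal markers summed to between 372 and 439 RPKM in every library. Most of this sum was nSyb (271 to 317 RPKM), while elav was at most 0.0466 RPKM in any library.

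The 3 most abundant members, Tsf1, Fer1HCH and Fer2LCH, were among the highest genes of the table. RPKM, reads scaled to gene length and library depth, was 371 ± 75.1 for Tsf1, 318 ± 51.9 for Fer1HCH and 184 ± 26.8 for Fer2LCH (mean ± SD over 25 libraries), levels that lay above 99.5%, 99.4% and 98.3% of the tested genes. Alas followed with 61.3 ± 5.03 RPKM and Ho with 46.6 ± 4.86 RPKM. Mvl stood at 14.2 ± 1.47 RPKM, fh at 10.8 ± 1.51 RPKM and Tsf2 at 10.4 ± 1.08 RPKM, near the middle of the tested genes. The deposited RPKM used the genomic span with introns as the length for most genes, so levels of different genes were compared on RPKM recomputed from reads and summed exon length. On that exon scale Tsf1 was at 424 ± 85.8, Fer1HCH at 349 ± 57.0, Fer2LCH at 309.8 ± 45.2, Alas at 66.1 ± 5.42, Ho at 51.3 ± 5.34, Mvl at 23.8 ± 2.45, Tsf2 at 11.8 ± 1.23 and fh at 11.6 ± 1.62 exon-based RPKM. Fer1HCH exceeded Fer2LCH in 25 of 25 libraries, and the steps from Fer2LCH to Alas, Alas to Ho, Ho to Mvl and Mvl to Tsf2 also held in 25 of 25. Tsf1 exceeded Fer1HCH in 21 of 25 libraries, and Tsf2 and fh did not separate, Tsf2 being the higher in 15 of 25.

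**Figure D1:**
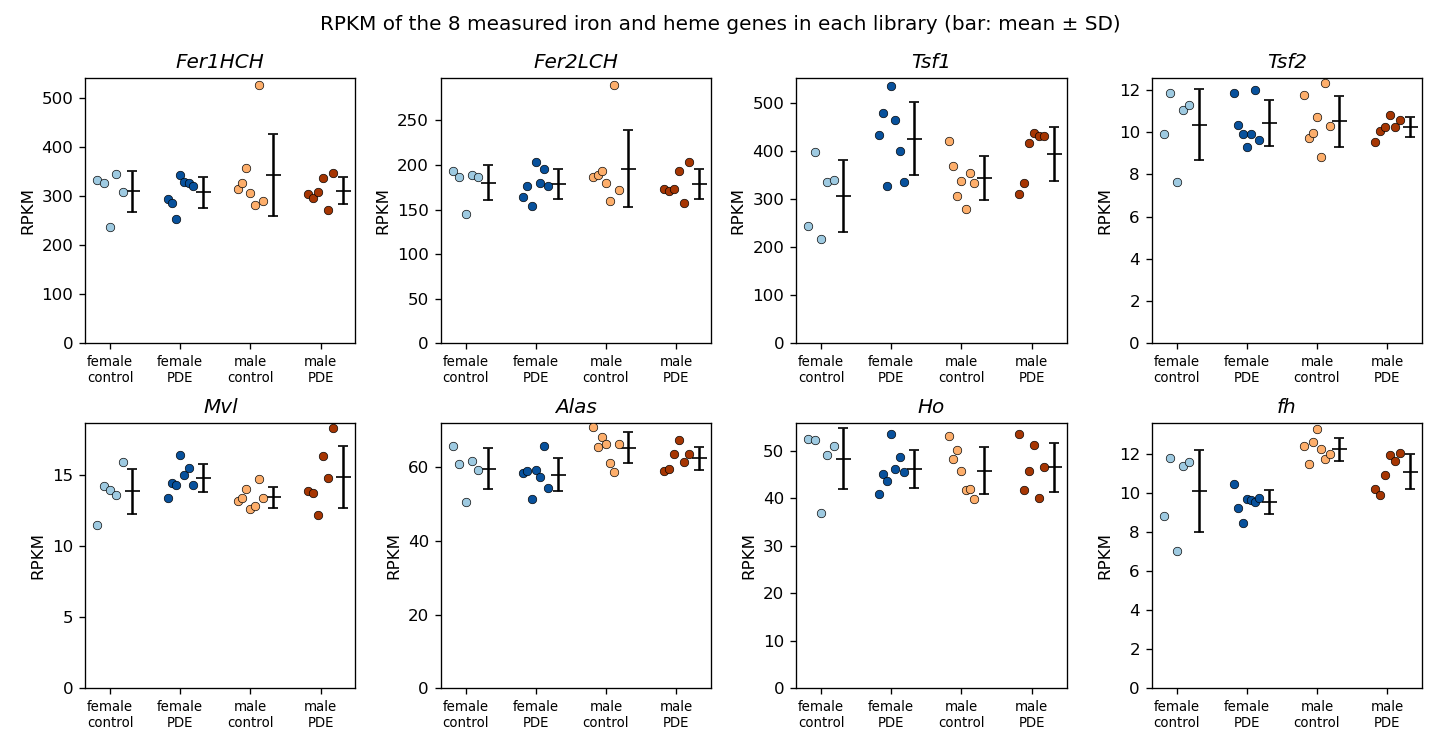
RPKM (linear axis from 0) of the 8 measured iron and heme genes, with 1 point per library, by sex and treatment; the bar beside each group is the mean ± SD. Tsf1 runs from 217 RPKM in female control 3 to 536 RPKM in female PDE 4, and a single male control stands far above the rest for both ferritin genes.

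No measured member passed the test between PDE and control. Of the 8 members, 0 were called at an adjusted p under 0.05 by limma, a linear model fitted to log2(RPKM + 1) of all 7985 tested genes, in females (0.0751% of all tested genes called), in males (0.175% called) or in the average of the sexes (0.413% called). The male calls over all genes split into 9 higher and 5 lower, and into 11 higher and 2 lower after quantile normalization. For the difference between the male and the female change, 0 of 8 members and 0 of 7985 genes (0%) were called. At an unadjusted p under 0.05 the members numbered 1 for females, 0 for males, 2 for the average and 0 for the difference of the changes, against 383, 319, 512 and 177 of all genes. A second tool, limma voom on the recovered reads, likewise called 0 members in each of these 4 comparisons, and 1, 0, 3 and 0 members had an unadjusted p under 0.05. Over all genes voom called 5, 11, 31 and 0, and 342, 364, 496 and 211 had an unadjusted p under 0.05. The PDE and control libraries overlapped for all 8 members in both sexes, while 0.313% of all tested genes did not overlap in females and 0.363% in males. The members' median log2 change was −0.006 in females and −0.046 in males, beside 0.012 and 0.014 over all tested genes.

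**Figure D2:**
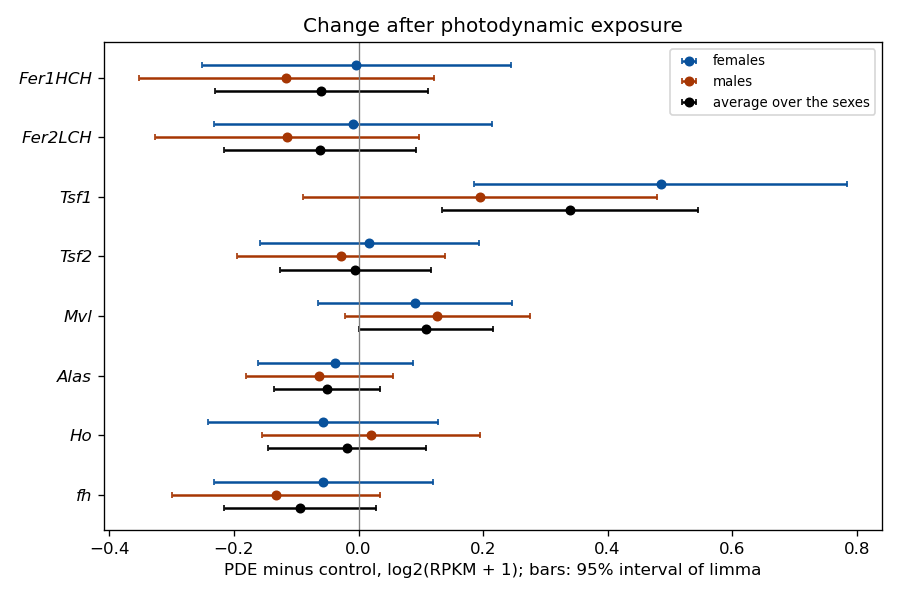
Change from control to PDE on the log2(RPKM + 1) scale for the 8 measured members in females, males and the average of the sexes; points are limma estimates and bars their 95% intervals. The Tsf1 intervals of females (0.19 to 0.78) and of the average (0.13 to 0.55) lie above 0 without passing adjustment over all genes, and most other intervals include 0.

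The secreted ferritin genes, Fer1HCH (FBgn0015222, heavy chain) and Fer2LCH (FBgn0015221, light chain), are neighbours on chromosome 3R of the dm6 genome. Fer1HCH lies at 30385573 to 30388178 on the minus strand and Fer2LCH at 30387804 to 30390584 on the plus strand, so that their annotated spans share 375 bases, of which 118 are exonic in both. The sources used here do not state whether the authors' counting used strand, and how reads from the shared bases entered the 2 values was not tested. Genes placed wholly inside a gene on the opposite strand were mostly listed at 0 (90.14%, against 3.53% of genes that overlap no other). The summed exon lengths used here, 2376 and 1648 bases, include the shared exonic bases. The level order and the ratio of the 2 genes on the exon scale carry this unknown.

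No difference between groups passed the test for either ferritin gene. Fer1HCH was at 332, 325, 237, 344 and 308 RPKM in female controls 1 to 5. In female PDE it ran from 253 to 343 RPKM (median 321), in male controls from 281 to 525 RPKM (median 315) and in male PDE from 272 to 346 RPKM (median 306). The groups overlapped, and male control 6 alone, at 525 RPKM, stood above the next male control at 356 RPKM. The log2 change of Fer1HCH was −0.003 ± 0.120 (SE) in females, with a 95% interval of −16.0% to 18.5% on RPKM + 1, and −0.12 ± 0.114 in males (limma, adjusted p = 0.999 and 0.9999).

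Fer2LCH had the same extreme libraries. Its female controls were at 193, 187, 145, 189 and 187 RPKM, with female PDE at 154 to 204 RPKM (median 176). Male controls ran from 159 to 289.6 RPKM (median 187) and male PDE from 157 to 203 RPKM (median 173). These were again female control 3 and male control 6, and all groups overlapped. The log2 change was −0.009 ± 0.108 in females and −0.11 ± 0.103 in males (limma, adjusted p = 0.999 and 0.9999). Without male control 6 the male changes were −0.008 ± 0.087 for Fer1HCH and −0.017 ± 0.077 for Fer2LCH. Without female control 3 the female changes were −0.096 and −0.085, also short of the threshold.

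The 2 chains kept a nearly fixed ratio. On the exon scale, Fer1HCH was 1.13 ± 0.0417 times Fer2LCH over 25 libraries, with a range of 1.05 to 1.20. The group means of this ratio were 1.11 ± 0.0485 in female controls, 1.12 ± 0.0566 in female PDE, 1.13 ± 0.0410 in male controls and 1.13 ± 0.0161 in male PDE. Male control 6, where both genes were highest, thus had a ratio within this range. In that library 1195 of the 7985 tested genes were above every other male control. This is near the share of about 1 in 7 that each of 7 like libraries would have. Fer2LCH and Fer1HCH ranked 30 and 35 by the size of the gap. The largest gaps were those of CG3906 at 1401 RPKM (next male control 18.7), Muc68D at 613 RPKM (next 7.46) and CG11672 at 235 RPKM (next 5.68), genes named after their values were seen. Summed markers of gut (0.46 RPKM), fat body (90.2 RPKM), haemocytes (46.8 RPKM) and glia (751 RPKM) in male control 6 were within the range of the other male controls. Muscle (3.06 against at most 2.55 RPKM), trachea (3.68 against at most 2.36 RPKM) and neurons (428 against at most 426 RPKM) were above it. Libraries of other groups had higher sums still. Muscle was at 7.74 RPKM in male PDE 1, trachea at 11.3 RPKM in female control 5 and neurons at 439 RPKM in female control 3. Fer1HCH in these libraries was at 305, 308 and 237 RPKM. The part of these cell types in the ferritin values was not tested.

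**Figure D3:**
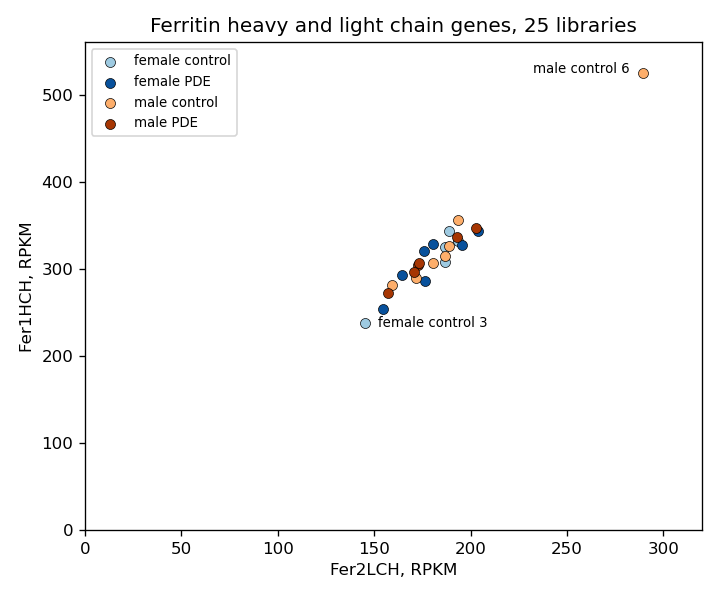
RPKM of Fer1HCH against RPKM of Fer2LCH in each of the 25 libraries, coloured by group. The points follow a line, with female control 3 (237 and 145 RPKM) at its lower end and male control 6 (525 and 289.6 RPKM) far beyond the others.

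Tsf1 (FBgn0022355, chromosome X, 18387084 to 18390344, plus strand), the main iron-carrying transferrin of the fly, had the largest difference of any member between PDE and control. It was at 244, 399, 217, 335 and 341 RPKM in female controls 1 to 5, and at 328 to 536 RPKM (median 435) in the 7 female PDE libraries. The groups overlapped, but 6 of 7 female PDE libraries were above the control median. In males it was at 279 to 422 RPKM (median 338) in controls and at 311 to 439 RPKM (median 424) after PDE, with 4 of 6 PDE libraries above the control median.

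The female log2 change of Tsf1 was 0.49 ± 0.145 (SE), a 95% interval of 13.8% to 72.2% on RPKM + 1, and did not pass over all genes (limma, adjusted p = 0.476). The male change was 0.19 ± 0.137 (limma, adjusted p = 0.9999). Averaged over the sexes it was 0.34 ± 0.0998, again short of the threshold (limma, adjusted p = 0.253). The male and the female change differed by −0.29 ± 0.200 (limma, adjusted p = 0.999). Quantile normalization alone, among the alternatives tried, brought the averaged change past the threshold (0.35, limma, adjusted p = 0.0381), and over all alternatives that adjusted p ran from 0.0381 to 0.718. Without female control 3 the female change was 0.37 (limma, adjusted p = 0.641).

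The sum of the glial markers had higher medians in the groups in which Tsf1 had higher medians, within each sex. The summed RPKM of the glial genes repo, nrv2, Gs2 and wrapper was 647 to 811 (median 710) in female controls and 671 to 975.1 (median 842) in female PDE. In males it was 678 to 937 (median 831) in controls and 859.5 to 1079 (median 914) after PDE. A further glial gene, moody, was listed at 0, and alrm was not analysed here. Over the 25 libraries Gs2 (median 455 RPKM) and nrv2 (median 276 RPKM) made up most of the sum. Single glial markers were not compared between groups. Fat body markers, 8 of 8 above 0, summed to 110 to 5590.5 RPKM (median 958) in female controls and 192 to 2285 RPKM (median 575) in female PDE, against 50.7 to 116 RPKM over all males. The yolk protein genes Yp1, Yp2 and Yp3 reached 2572, 1762 and 1173 RPKM, and the next highest of these markers, apolpp, 58.5 RPKM. The high sums were therefore mostly those of yolk protein genes and do not measure the amount of fat body. Haemocyte markers, 6 of 7 of which were in the table, summed to 36.1 to 60.9 RPKM in female controls, 41.6 to 65.5 RPKM in female PDE, 40.2 to 50.2 RPKM in male controls and 41.9 to 61.6 RPKM in male PDE. The part of these cell types in the Tsf1 values was not tested, and in pieces of whole tissue fewer cells of a type and less RNA per cell cannot be told apart. Without the 5 libraries richest in retinal transcripts, the Tsf1 change was 0.53 for females, 0.11 for males and 0.32 averaged over the sexes (limma, adjusted p = 0.703, 0.9999 and 0.718).

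**Figure D4:**
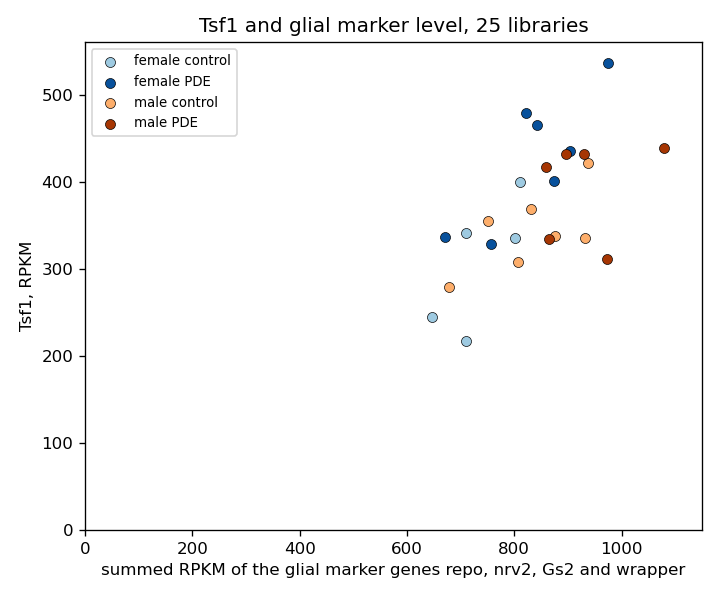
Tsf1 RPKM against the summed RPKM of 4 glial marker genes in each of the 25 libraries, coloured by group. The lowest Tsf1 values, 217 and 244 RPKM in female controls 3 and 1, are in libraries on the low side of the glial axis. The highest, 536 RPKM in female PDE 4, is on its high side. The order is not kept throughout. Male PDE 1, also on the high side, has Tsf1 at 311 RPKM, below female PDE 7 at 337 RPKM on the low side. Male PDE 4, the highest on the glial axis, has Tsf1 at 439 RPKM.

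Tsf2 (FBgn0036299, chromosome 3L, 12530436 to 12533724, minus strand) encodes a melanotransferrin-like protein needed for septate junctions in Drosophila epithelia. Its mean was 10.3 ± 1.67 RPKM in female controls, 10.4 ± 1.08 RPKM in female PDE, 10.5 ± 1.20 RPKM in male controls and 10.2 ± 0.451 RPKM in male PDE. These means differed by less than the SD within any group, and the averaged log2 change was −0.006 ± 0.059 (limma, adjusted p = 0.999).

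Tsf3 (FBgn0034094, chromosome 2R, 16226501 to 16229869, plus strand) could not be read from the table. All 3369 bases of its span lie inside CG15706, a gene on the opposite strand. Of the 1075 protein-coding genes of the table placed wholly inside a gene on the opposite strand, 969 (90.14%) were listed at 0 in all 25 libraries. Of the 7303 protein-coding genes that overlap no other gene, 258 (3.53%) were listed at 0. The value of 0 for Tsf3 therefore does not show that the brain lacks this transcript.

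Mvl (FBgn0011672, chromosome 3R, 21051383 to 21060800, minus strand), the fly member of the NRAMP family of divalent metal importers, had slightly higher means after PDE in both sexes without passing the test. Female controls were at 11.5, 14.3, 14.0, 13.6 and 15.9 RPKM, and female PDE ran from 13.4 to 16.4 RPKM (median 14.5). Male controls ran from 12.6 to 14.7 RPKM (median 13.4) and male PDE from 12.2 to 18.3 RPKM (median 14.3). Above the control median were 6 of 7 female and 5 of 6 male PDE libraries, though the groups overlapped. The averaged log2 change was 0.11 ± 0.052 (limma, adjusted p = 0.768).

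Alas (FBgn0020764, chromosome 2R, 23964772 to 23966757, plus strand) encodes 5-aminolevulinate synthase, the first enzyme of heme synthesis. It was at 65.6, 60.7, 50.5, 61.5 and 59.0 RPKM in female controls, and at 51.2 to 65.6 RPKM (median 58.5) in female PDE. In males it was at 58.6 to 70.8 RPKM (median 66.2) in controls and at 59.0 to 67.2 RPKM (median 62.4) in PDE. The 4 groups overlapped, with the higher means in males. The change from control to PDE was −0.04 in females and −0.06 in males on the log2 scale, and −0.05 ± 0.041 in the average (limma, adjusted p = 0.999).

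Of 6 later enzymes of heme synthesis, 0 passed the test between PDE and control. In pathway order their mean RPKM in female controls and female PDE was 7.32 and 6.26 for Pbgs, 19.6 and 17.5 for Uros1, 18.2 and 17.0 for Urod, 9.82 and 9.48 for Coprox, 5.59 and 5.75 for Ppox, and 18.5 and 18.2 for FeCH, the ferrochelatase that inserts iron. In males the same means were 6.535 and 7.02 for Pbgs, 18.5 and 18.1 for Uros1, 19.3 and 19.9 for Urod, 9.01 and 9.64 for Coprox, 6.22 and 5.92 for Ppox, and 18.3 and 19.0 for FeCH. Pbgs, the porphobilinogen synthase, was below the control median in 7 of 7 female PDE libraries (log2 change −0.20 ± 0.071, limma, adjusted p = 0.779). Its male change lay 0.29 ± 0.098 above the female change (limma, adjusted p = 0.999). FeCH was also below the control median in 7 of 7 female PDE libraries, with a log2 change of only −0.012 ± 0.082 (limma, adjusted p = 0.999). Uros1, the uroporphyrinogen III synthase, had a log2 change of −0.15 ± 0.060 in females (limma, adjusted p = 0.897).

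**Figure D5:**
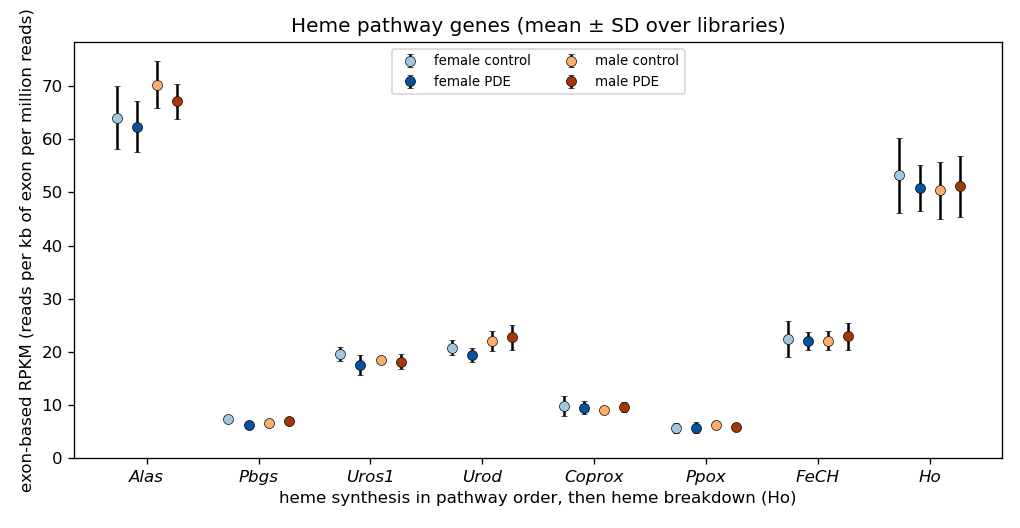
Exon-based RPKM (linear axis from 0, mean ± SD over the libraries of each group) for 7 enzymes of heme synthesis in pathway order and for heme oxygenase. Alas and Ho are the highest of the 8 genes in every group, and Pbgs and Ppox the lowest.

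Ho (FBgn0037933, chromosome 3R, 11679743 to 11680976, plus strand) encodes the only heme oxygenase of the fly. It was at 52.5, 52.4, 37.0, 49.2 and 51.0 RPKM in female controls and at 40.9 to 53.6 RPKM (median 45.5) in female PDE. In males it was at 39.8 to 53.2 RPKM (median 45.7) in controls and at 40.0 to 53.5 RPKM (median 46.3) in PDE. All groups covered nearly the same range, and female control 3 lay below the rest. The log2 change was −0.06 in females and 0.02 in males (limma, adjusted p = 0.999 and 0.9999).

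Frataxin, a mitochondrial protein of iron-sulfur cluster assembly, is encoded by fh (FBgn0030092, chromosome X, 9148080 to 9149071, minus strand). It was at 8.80, 11.8, 7.04, 11.4 and 11.5 RPKM in female controls and at 8.43 to 10.5 RPKM (median 9.62) in female PDE. Male controls ran from 11.4 to 13.2 RPKM (median 12.2) and male PDE from 9.87 to 12.03 RPKM (median 11.2). Every PDE library was below the control median of its sex, 7 of 7 females and 6 of 6 males, but the groups overlapped. All female PDE values lay within the range of the female controls. For no gene named here was such a count against a median set beside its share over all tested genes. The log2 change was −0.06 ± 0.085 for females, −0.13 ± 0.081 for males and −0.09 ± 0.059 averaged over the sexes (limma, adjusted p = 0.999, 0.9999 and 0.941). The lowest value, 7.04 RPKM in female control 3, rested on 62 reads, with an exact Poisson 95% interval of 5.39 to 9.02 RPKM that covers counting error only.

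Males and females were also compared within each treatment. Of the 8 members, 0 were called between the sexes in controls (4.75% of all tested genes called) and 0 after PDE (4.92% called). Over all genes the calls split into 126 higher and 253 lower in male controls, and after quantile normalization into 186 and 210. After PDE they split into 132 higher and 261 lower in males, and after quantile normalization into 172 and 217. The sexes overlapped for all 8 members, while 2.97% of the tested genes did not overlap in controls and 3.01% after PDE. At an unadjusted p under 0.05 there were 2 members in controls and 1 after PDE (voom: 1 and 1), against 1279 and 1255 of all genes (voom: 1325 and 1310).

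The sex difference was widest for fh. Its male controls were all above the female control median (7 of 7), by 0.27 ± 0.085 on the log2 scale (limma, adjusted p = 0.0723). After PDE 6 of 6 males were above the female PDE median, by 0.20 ± 0.081 (limma, adjusted p = 0.206). The control difference passed the threshold after quantile normalization (adjusted p = 0.0099, limma) and without female control 2, 4 or 5 (limma, adjusted p = 0.0336, 0.0379 and 0.0373), and was 0.16 without female control 3 (limma, adjusted p = 0.180). The difference after PDE passed with array weights and without female control 3 (limma, adjusted p = 0.0329 and 0.0468). For Alas the male excess was 0.13 ± 0.060 in controls and 0.11 ± 0.057 after PDE (limma, adjusted p = 0.260 and 0.375), and the control difference passed after quantile normalization (limma, adjusted p = 0.0450). Without female control 3 the Alas difference in controls was 0.08 (limma, adjusted p = 0.493).

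A wider list of iron, heme and iron-sulfur genes, which includes the members, had 36 tested genes. Of these, 0 were called between PDE and control in females, in males, in the average or for the difference of the changes, and 0 between the sexes in controls, by limma. Over all tested genes 0.0751%, 0.175%, 0.413%, 0% and 4.75% were called in these 5 comparisons. At an unadjusted p under 0.05 there were 3, 0, 4, 1 and 3 of the 36 genes (limma voom: 0 called, and 3, 0, 5, 1 and 3). The shares over all tested genes were 4.80%, 3.99%, 6.41%, 2.22% and 16.0% by limma, and 4.28%, 4.56%, 6.21%, 2.64% and 16.6% by voom. Voom called 5, 11, 31, 0 and 393 of all genes. The list's median log2 change was −0.004 for females, 0.034 for males and 0.002 averaged over the sexes, beside 0.012, 0.014 and 0.013 over all genes. The 4 genes of smallest p in the average were Tsf1, Nfs1, Uros1 and Mvl. Nfs1, the cysteine desulfurase that supplies sulfur for iron-sulfur clusters, had means of 40.8 RPKM in female controls, 45.3 RPKM in female PDE, 44.9 RPKM in male controls and 49.2 RPKM in male PDE, an averaged log2 change of 0.14 ± 0.054 (limma, adjusted p = 0.535). Uros1 had a log2 change of −0.09 ± 0.042 in the average (limma, adjusted p = 0.695). The aconitase-family genes Irp-1A and Irp-1B, of which the first can bind iron-responsive elements of mRNA, had means of 22.7 to 23.7 RPKM and of 17.2 to 18.9 RPKM in the 4 groups.

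Urod, the uroporphyrinogen decarboxylase, was the single gene of the wider list that passed in any of the comparisons, 1 of 36 (2.78%) after PDE between the sexes, where 4.92% of all tested genes were called. After PDE it was at 15.7 to 18.7 RPKM (median 16.9) in females and at 16.4 to 22.7 RPKM (median 20.1) in males. It was higher in males by 0.22 ± 0.063 on the log2 scale (limma, adjusted p = 0.0455), with 5 of 6 males above the female median although the groups overlapped. The call was lost on removal of 16 of the 25 libraries in turn, with an adjusted p of up to 0.135, and in 5 of 9 other alternatives; over all these fits the adjusted p ran from 0.0053 to 0.150. Mfrn, the mitochondrial iron importer mitoferrin, was the single gene of 36 (2.78%, against 2.97% of all tested genes) whose control groups did not overlap between the sexes, at 23.3 to 27.6 RPKM in females and 27.7 to 30.0 RPKM in males (limma, adjusted p = 0.194); it is named after its values were seen.

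Of the 28 pairs of measured members, 7 had a Pearson r and 12 a Spearman rho with an adjusted p under 0.05 (permutation tests), and 6 pairs had both. The share of all gene pairs that would pass was not computed, and 27 of the 28 pairs had an r above 0. After subtraction of the group means, log2 values of Fer1HCH and Fer2LCH had a Pearson r of 0.968 and a Spearman rho of 0.945 over 25 libraries, each with a permutation p of 1e-05, the smallest that 100000 permutations within groups can give, and 0.00028 after adjustment over 28 pairs. The Pearson r was 0.926 without male control 6 and female control 3. Alas and Ho, the first step of heme synthesis and heme breakdown, had r = 0.621 and rho = 0.641 (permutation test, adjusted p = 0.0293 and 0.0175), and r was 0.481 without the 2 most distant libraries. Tsf1 and fh had r = 0.690 and rho = 0.605 (permutation test, adjusted p = 0.0234 and 0.0364), and r was 0.565 without the 2 most distant libraries. Tsf2 and fh had r = 0.671 and rho = 0.523 (permutation test, adjusted p = 0.0293 and 0.0445), and r was 0.579 without the 2 most distant libraries. Also past the threshold in r were Tsf1 with Tsf2 (0.588), Fer2LCH with Tsf2 (0.555, where rho did not pass) and Fer2LCH with Mvl (0.444). Without the 2 most distant libraries of each pair, these r were 0.461, 0.309 and 0.486. The lowest r were those of Mvl with Alas (−0.002), Ho (0.153) and Tsf2 (0.176). Depth and tissue makeup are shared by all genes of a library, and many genes varied in common: the median r of Tsf1 with the 5791 other genes of at least 5 RPKM was 0.321, that of Alas 0.431, that of Fer1HCH 0.267 and that of Mvl 0.101. The 99th percentile of such r was 0.706 for Fer1HCH, 0.717 for Fer2LCH, 0.768 for Tsf1 and 0.742 for Tsf2. It was 0.685 for Mvl, 0.828 for Alas, 0.819 for Ho and 0.780 for fh. Among the pairs named, only the ferritin pair exceeded the percentiles of its own genes.

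The genes most like each member were ranked by the same r over the 25 libraries, as a description. For Fer1HCH they were Fer2LCH (0.968), Ctl2 (0.858) and Sec23 (0.841), where the 99th percentile of all genes was 0.706. For Fer2LCH they were Fer1HCH (0.968), Xbp1 (0.857) and Syx5 (0.839). Tsf1 was most like RabGGTb (0.879), CG32032 (0.872) and Pgm1 (0.854), and Tsf2 most like Der-1 (0.828), Pfdn5 (0.822) and Sf3a2 (0.821). The partner genes of the ferritin pair include Sec23, a coat protein of transport vesicles that leave the endoplasmic reticulum, and Syx5, a syntaxin of the Golgi. These genes were singled out after their values were seen, and a shared function of the partners was not tested. Mvl was most like Ntan1 (0.815), Arc42 (0.803) and AOX1 (0.799), and Alas most like Taf12 (0.931), BEAF-32 (0.916) and CG15602 (0.904). Ho was most like Srp9 (0.908), Arl6IP1 (0.894) and CG14721 (0.874), and fh most like Gs1l (0.889), IntS14 (0.873) and UQCR-C2 (0.861).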

How the data were processed

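The authors aligned reads with STAR to the dm6 genome, per the submitters' processing notes, and deposited RPKM values of 16060 genes in 25 libraries; neither the counter nor its use of strand is named in the sources used here. Whole reads were recovered from the steps of the deposited RPKM for 13578 of 13581 genes above 0 (tolerance 0.001 reads), and for 11894 of these (87.6%) the length in use was the genomic span. Symbols, positions and exon lengths came from Ensembl release 115 (BDGP6.54, dm6 coordinates), which named 15997 genes. All columns were assigned to samples by their titles. The 7985 genes that reached 1 RPKM in 5 or more libraries were tested with limma 3.58.1 in R 4.3.3 on log2(RPKM + 1), with 1 coefficient for each of 4 groups, moderated errors with an intensity trend and Benjamini-Hochberg adjustment over all genes tested; a gene was called at an adjusted p under 0.05. Fold changes on this scale understate those of low genes. The procedure was checked on simulated data.

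Named were the 10 members, steps of heme synthesis (1 item is not reported here), genes of the wider list called in a comparison, the 4 of smallest p in the averaged comparison, and the 3 genes most like each member. Of the wider list's 46 genes, 42 were in the table and 36 were tested. Members and lists were chosen with earlier results of these data known. Alternatives were other pseudocounts, no filter on low values, quantile normalization, voom on recovered reads, fits of only the groups compared, array weights, a replicate block, and fits without single libraries or the 5 richest in retinal transcripts. No sequences were used here.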

Additional observations from a re-analysis of the deposited data

Results flagged for a closer look

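Within groups, 4 member values lay further from the others than Dixon's 95% limit, among 32 sets of values tested (8 members in 4 groups); chance flags about 1 in 20 such sets. Male control 6 was far above the other 6 male controls for Fer1HCH, at 524.6 RPKM, with a gap of 0.693 of the group's range (limit 0.568), and for Fer2LCH, at 289.6 RPKM, with a gap of 0.739 of the range. Female control 3 was far below the other female controls for Fer2LCH, at 145 RPKM against a next value of 187 RPKM (gap 0.861 of the range, limit 0.71), and for Ho, at 37.0 RPKM against a next value of 49.2 RPKM (gap 0.785). The 2 ferritin genes vary together, so their flags in male control 6 are not separate observations. The cause was not tested.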

How the results depend on the processing

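Depth limits fh most among the members, and an interval that includes 0 does not show equal levels. Under 25 fits that each left out a library and 9 other alternatives, the 48 member results gave 1616 values: 1526 kept their direction and side of the threshold, 8 gained a call, 0 lost one and 82 changed sign, 0 of them with an adjusted p under 0.05; 30 of 48 results kept their sign throughout. Fits of only the groups compared cannot give the average or the difference of the changes. Genes called in females numbered 3 with only the 2 groups fitted (6 in the report). In males they numbered 25 with array weights, 6 without the retina-rich libraries and 8 to 17 on leaving out single libraries (14). For the difference of the changes the range on leaving out single libraries was 0 to 1. Between the sexes in controls the count was 176 with only those groups, 179 without the retina-rich libraries and 250 to 449 without single libraries (379), and after PDE 664 with array weights (393). Members called were 1 in the average and 2 between the sexes in controls after quantile normalization, 1 between the sexes after PDE with array weights, and 0 to 1 in both sex comparisons without single libraries. Wider-list genes called were 1 in the average and 2 between the sexes in controls after quantile normalization, and 0 to 1 in controls and 0 to 2 after PDE without single libraries. After PDE, the wider list had 0 with no filter, with voom, with only those groups, with the replicate block and without the retina-rich libraries, and 2 with array weights.

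The changes of sign were those of log2 differences near 0. In females Fer1HCH was 0.0239 after quantile normalization and 0.0375 without the retina-rich libraries, Fer2LCH 0.0097 without them, and Tsf2 −0.0185 with voom, −0.0907 with array weights and −0.0016 with the replicate block. In males Ho was −0.0120 with array weights and −0.0362 without the retina-rich libraries, and Tsf2 in the average was 0.0107 without them. The difference of the changes was 0.0757 for Tsf2 with array weights, and 0.0078 with voom and 0.0791 with array weights for fh. Between the sexes in controls Tsf2 was −0.0086 with voom and −0.0941 with array weights. After PDE the sex difference was −0.118 for Fer1HCH after quantile normalization, 0.0081 with array weights and 0.0042 without the retina-rich libraries for Fer2LCH, −0.00039 with a pseudocount of 0.1 and −0.0036 with the replicate block for Mvl, and −0.0016 with voom and −0.0121 with the replicate block for Ho. On leaving out single libraries, female changes ranged from −0.0957 to 0.0419 for Fer1HCH, −0.0850 to 0.0245 for Fer2LCH and −0.0776 to 0.0660 for Tsf2, and male changes from −0.0651 to 0.0075 for Tsf2 and −0.0201 to 0.0618 for Ho. The averaged change ranged from −0.0531 to 0.0187 for Tsf2 and −0.0640 to 0.0024 for Ho. The difference of the changes ranged from −0.0945 to 0.0491 for Tsf2, −0.0227 to 0.0964 for Mvl, −0.0621 to 0.0304 for Alas and −0.132 to 0.0349 for fh. The sex difference in controls ranged from −0.0682 to 0.0754 for Tsf2 and −0.0962 to 0.0133 for Mvl. After PDE it ranged from −0.0292 to 0.0530 for Fer1HCH, −0.0417 to 0.0322 for Fer2LCH, −0.0428 to 0.0130 for Tsf2, −0.0585 to 0.0514 for Mvl and −0.0353 to 0.0467 for Ho. The cause of these shifts was not tested. Same-numbered libraries correlated between 0.0337 and 0.302 (5 female pairs) and between −0.688 and 0.459 (6 male pairs), and 2 of 11 control libraries correlated best with their own number, so the numbers were not taken as pairs. The replicate block gave a Tsf1 change of 0.51 in females (limma, adjusted p = 0.478).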
